A study of Rattus norvegicus with 46 samples.

Results

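The subunits of the oxidative phosphorylation system were followed through 5 models of cardiac hypertrophy in rat and in neonatal heart. The members were 57 listed nuclear genes, which comprised subunits of complexes I to V, cytochrome c (Cycs) and the nicotinamide nucleotide transhydrogenase Nnt. A member was measured where at least 1 probe set carried its symbol and no other, and where several did, the one with the highest mean over all arrays was taken. In this way 38 of the 57 were measured, on 38 of the 8740 probe sets. They were 12 of 16 members of complex I, 1 of 4 of complex II (Sdha), 3 of 6 of complex III, 11 of 14 of complex IV (Ndufa4 among them), 10 of 15 of complex V, and Nnt. Atp5mc1, Atp5mc2, Cox7a2 and Cycs were represented only on probe sets shared with another symbol. For the remaining 15 no probe set with 1 symbol was used here, among them Ndufv1, Sdhb, Uqcrc1 and Cox7a1.

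The study hybridized 46 Affymetrix RGU34A arrays, each with a separate pool of left ventricular RNA from male Wistar rats. Aortic banding (pressure overload, a clip on the ascending aorta) was sampled at 6, 12 and 16 weeks with 2 arrays each and at 30 weeks with 4 arrays. Myocardial infarction (ligated coronary artery, scar removed) was sampled at 3 and 9 weeks with 4 arrays each, and shunt (an aorto-caval fistula, volume overload) at 3 and 8 weeks with 2 arrays each. Every surgical time point had 2 sham-operated arrays of its own. Angiotensin II and the thyroxin analogue 3,5-diiodothyropropionic acid (Ditpa) were given for 2 weeks, with 2 arrays each, and shared the same 2 vehicle (saline) arrays. The methods describe pumps for angiotensin II and daily injections for Ditpa, each with its own control treatment. The labels call all of them infusions, so the vehicle arrays may not match both treatments. In addition there were 2 arrays of neonatal hearts, taken 3 days after birth according to the methods and also labelled as left ventricle. They had no controls of their own and were set against the mean of the 9 adult control groups. This gave 26 hypertrophic, 18 adult control and 2 neonatal arrays. No age was given for the adult rats, and because hearts were pooled, the spread between arrays is that between pools.

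Oxidative phosphorylation couples the oxidation of NADH and succinate to the synthesis of ATP in the inner mitochondrial membrane. Complexes I (NADH dehydrogenase) and II (succinate dehydrogenase) pass electrons through ubiquinone to complex III (cytochrome bc1) and, by cytochrome c, to complex IV (cytochrome c oxidase), and the proton gradient built on the way drives complex V (ATP synthase). Heart muscle depends on the pathway for most of its ATP, and some cytochrome c oxidase subunits exist as a ubiquitous isoform and as one restricted to heart and skeletal muscle.

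Promoter sequences are shown for 6 members on which the results turn. The first 3 are isoforms of cytochrome c oxidase whose signals moved differently in neonatal heart, and the last 3 are the members that were lower in hypertrophy by both tests applied. Each run is 150 bases directly upstream of the RefSeq gene start in the rat assembly GRCr8, read in the direction of the gene, and the arrays carry no information on binding at these sites. Capitals mark matches to the motifs searched.
Cox8a, chr1:213833624-213833773, minus strand: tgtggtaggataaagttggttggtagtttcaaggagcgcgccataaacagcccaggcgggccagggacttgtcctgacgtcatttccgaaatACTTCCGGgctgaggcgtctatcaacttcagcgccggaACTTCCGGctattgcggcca
Cox8b, chr1:205408274-205408423, minus strand: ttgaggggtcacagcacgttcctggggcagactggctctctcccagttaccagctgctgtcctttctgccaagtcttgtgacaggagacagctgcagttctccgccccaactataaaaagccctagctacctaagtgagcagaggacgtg
Cox6a2, chr1:192219717-192219866, minus strand: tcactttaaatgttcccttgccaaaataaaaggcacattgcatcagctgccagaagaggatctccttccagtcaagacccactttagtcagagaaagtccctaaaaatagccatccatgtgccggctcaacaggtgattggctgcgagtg
Nnt, chr2:53237311-53237460, minus strand: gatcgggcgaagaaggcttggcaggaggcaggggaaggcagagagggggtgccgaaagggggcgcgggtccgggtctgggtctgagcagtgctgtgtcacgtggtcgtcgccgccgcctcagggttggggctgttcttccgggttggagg
Sdha, chr1:30764403-30764552, plus strand: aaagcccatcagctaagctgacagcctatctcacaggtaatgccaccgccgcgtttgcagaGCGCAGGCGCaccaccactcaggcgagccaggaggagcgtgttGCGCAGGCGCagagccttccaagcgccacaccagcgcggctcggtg
Atp5po, chr11:44657484-44657633, minus strand: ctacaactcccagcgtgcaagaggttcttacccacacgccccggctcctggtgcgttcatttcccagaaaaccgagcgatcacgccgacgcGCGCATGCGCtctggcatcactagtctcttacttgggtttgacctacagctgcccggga

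Of the 38 measured members, 32 had a promoter in the RefSeq table, Cox6a1 not among them. Windows from 250 bases before to 50 after the start were searched on both strands. The GABP motif CCGGAAGT was present in 4 of the 32 members (12.5%) and in 4.01% of all 27457 promoters, and its reverse complement is the stretch in capitals in Cox8a. The NRF1 palindrome, shown by the capitals in Atp5po, was present in that 1 member (3.12%) against 0.932% of all promoters. Its looser form, in which the middle pair of bases is free and which includes the former, was found in 7 members (21.9%), Sdha with the stretches in capitals among them, against 6.15%. The YY1 motif was found in 5 members (15.6%) against 0.798%, and the ERR motif TCAAGGTCA in 0 members against 0.412%. The YY1 matches all lay after the start, between positions 5 and 34. In all, 15 of the 32 held at least 1 of these motifs. Within their searched windows Cox8b, Cox6a2 and Nnt held none. The median GC content of the windows was 55.8% for the members and 52.3% for all promoters. These are letter matches only.

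The members gave some of the strongest signals in the heart. The median of their mean intensities was 17628, against 1058 over all probe sets, and 35 of the 38 exceeded the 90th percentile of 4551. The exceptions were Ndufs1, Cox5a and Cox6c. This matters because the deposited arrays differed in the brightness of their upper end although their medians lay close together, between 1003 and 1084. The 99th percentile of intensity was 17174 to 17587 on the 4 hormone arrays, 19049 and 21635 on the neonatal arrays, 19141 on 1 sham array (banding at 6 weeks, number 3) and 21865 to 30977 on all others. Every comparison is therefore given as deposited and after quantile normalization, which gives all arrays the same distribution and thereby also holds the brightest probe sets near fixed values. Cox6a2, for example, ranked between 10 and 28 among all probe sets on every array.

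The intensities summed over the 38 members show how far this reaches. As deposited, the sum was 589078 to 877659 on the control arrays, 651609 to 798408 on banding arrays and 719995 to 806923 on infarction arrays, and these ranges overlapped. On the angiotensin II arrays it was 540038 and 565117, on the Ditpa arrays 524660 and 541998, and on the neonatal arrays 546695 and 588573, all below every control array. After quantile normalization the picture turned around. The hormone arrays (720683 to 748803) then overlapped the controls (726833 to 786619), whereas the banding (640392 to 698842), infarction (641075 to 703844) and neonatal arrays (636692 and 653452) lay wholly below them. The shunt arrays (739471 to 755561) stayed within the control range, as they had as deposited (656431 to 766668).

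**Figure D1:**
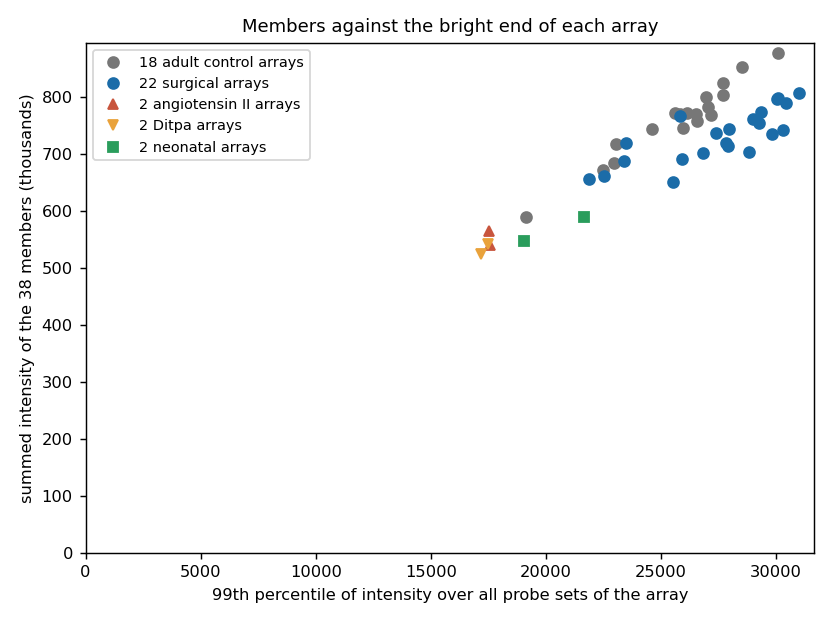
Summed intensity of the 38 members (y axis, scaled as its label states) against the 99th percentile of intensity over all probe sets (x axis), 1 point per array as deposited. The 4 hormone arrays have the lowest 99th percentiles, between 17174 and 17587, and the lowest sums of the adult arrays. Bright members themselves contribute to the 99th percentile, so the axes are not independent.

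Across the 10 treated groups, members of 4 of the 5 complexes and Nnt were lower than in the matched controls, and none was higher. The average effect, with the groups weighted equally, was tested with limma, and a member was called at a Benjamini-Hochberg adjusted p below 0.05 over all 8740 probe sets. As deposited, 9 of the 38 members were called lower, against 1.57% of all probe sets, and 0 were called higher, against 3.64%. They comprised 3 members of complex I, 1 of complex II, 1 of complex III, 3 of complex V and Nnt. None of the 11 members of complex IV was called, although 6 of them had an unadjusted p below 0.05, against 1387 of all 8740 probe sets. The median effect of the members was -0.13 on the log2 scale, against 0.0072 over all probe sets, and 36 of 38 effects were below 0. After quantile normalization 11 members were called lower, against 2.48% of all probe sets, and 0 higher, against 2.96%, with a median of -0.099. In heart homogenates, fewer cells of a type and less RNA per cell cannot be told apart.

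**Figure D2:**
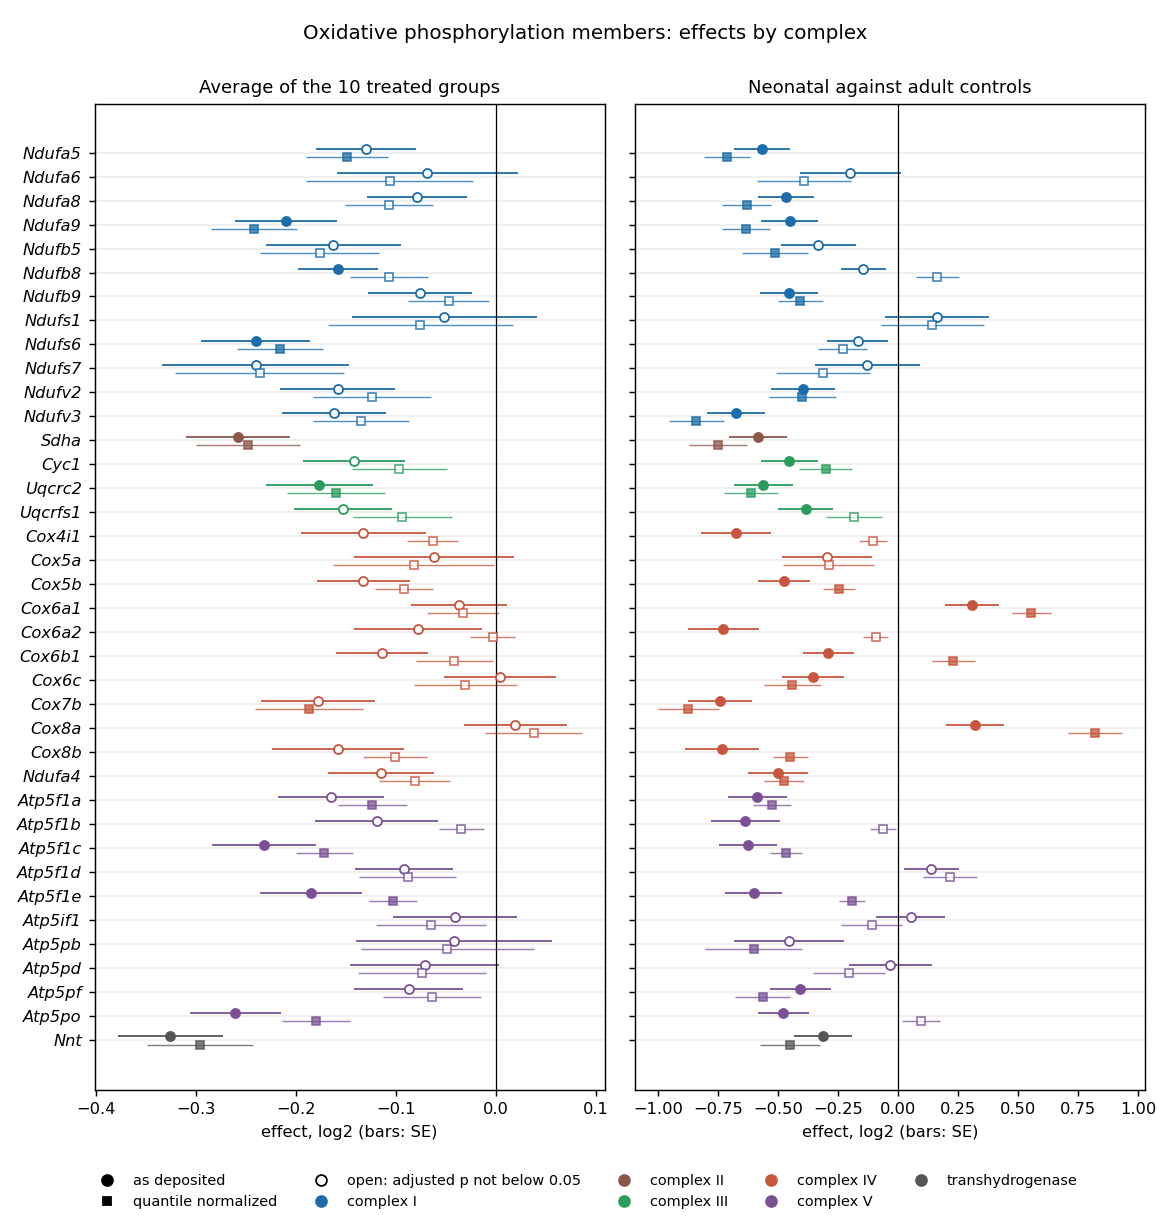
Effect of each measured member on the log2 scale with its standard error (x axes), for the average of the 10 treated groups (left) and for neonatal heart against adult controls (right), coloured by complex. Filled symbols are called; 9 members were called lower on average as deposited, and in neonatal heart 25 were called lower and 2 higher (Cox6a1 and Cox8a).

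Nnt, which uses the proton gradient to form NADPH from NADH and is not itself a subunit of the chain, had the largest average effect. Its intensity was 13963 to 19741 on the 18 control arrays with a median of 17241, and 10344 to 17956 on the 26 hypertrophic arrays with a median of 13627. The ranges overlapped, but 24 of the 26 hypertrophic arrays were below the mean of their own controls. The effect was -0.33 ± 0.053 (SE, limma adjusted p = 0.00011), and -0.30 after quantile normalization (adjusted p = 0.000356).

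Sdha, the flavoprotein subunit of complex II that oxidizes succinate, had an effect below 0 in all 10 treated groups under both scalings. With the hormones this was slight after quantile normalization. The effects were then -0.046 with angiotensin II and -0.0040 with Ditpa, against -0.18 and -0.23 as deposited. The controls ranged from 12872 to 17857 (median 15680) and the hypertrophic arrays from 10549 to 16629 (median 12933). Of the 26 hypertrophic arrays 25 were below the mean of their own controls. The effect was -0.26 ± 0.052 (limma adjusted p = 0.00161), and -0.25 after quantile normalization (adjusted p = 0.00204). Sdha is the only member of complex II measured, so nothing can be said of the complex as a whole.

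In complex V, Atp5po, the oligomycin sensitivity conferring protein that joins the catalytic head to the stalk, was lower by 0.26 log2 units (-0.26 ± 0.045, limma adjusted p = 0.000273), and 25 of 26 arrays were below the mean of their controls. After quantile normalization the effect was -0.18 (adjusted p = 0.000638). Its intensity was 23008 to 38703 (median 32481) on control arrays and 19840 to 34112 (median 28723) on hypertrophic arrays. It was lower in all 10 groups as deposited and in 8 of them after quantile normalization. A further probe set for Atp5po of nearly the same brightness (mean 29353 against 29394) gave -0.12 and was not called. The gamma subunit Atp5f1c, the central shaft of the rotor, had an effect of -0.23 ± 0.052, and the epsilon subunit Atp5f1e one of -0.19 ± 0.051, with both probe sets of Atp5f1e called. The alpha and beta subunits, which form the catalytic head, were at -0.16 (Atp5f1a) and -0.12 (Atp5f1b) and were not called as deposited. Atp5f1a was called after quantile normalization (-0.12, adjusted p = 0.0253). The inhibitory factor Atp5if1, which blocks reversal of the enzyme, was at -0.041 and not called.

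In complex I the accessory subunits Ndufs6 (-0.24 ± 0.055, limma adjusted p = 0.00547), Ndufa9 (-0.21 ± 0.051, adjusted p = 0.0096) and Ndufb8 (-0.16 ± 0.040, adjusted p = 0.0134) were lower on average. All 12 measured members of the complex had an effect below 0, with a median of -0.16. Ndufb8 was not called after quantile normalization (-0.11, adjusted p = 0.113), and 2 of its 4 probe sets were called. Of the 3 members of complex III, the core protein Uqcrc2 was called (-0.18 ± 0.053, adjusted p = 0.045), a call that was lost in 29 of 44 fits that each left out 1 array, while the Rieske iron-sulphur protein Uqcrfs1 and cytochrome c1 (Cyc1) were at -0.15 and -0.14 and were not called. In complex IV the effects lay between -0.18 (Cox7b) and 0.019 (Cox8a). Cox7b, a small subunit of the oxidase, was called only after quantile normalization (-0.19, adjusted p = 0.035). The muscle isoform Cox8b was at -0.16 on its brighter probe set and not called (adjusted p = 0.202), while its other probe set gave -0.37 and was called under both scalings. The isoforms Cox6a1 and Cox6a2 were at -0.037 and -0.078.

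**Figure D3:**
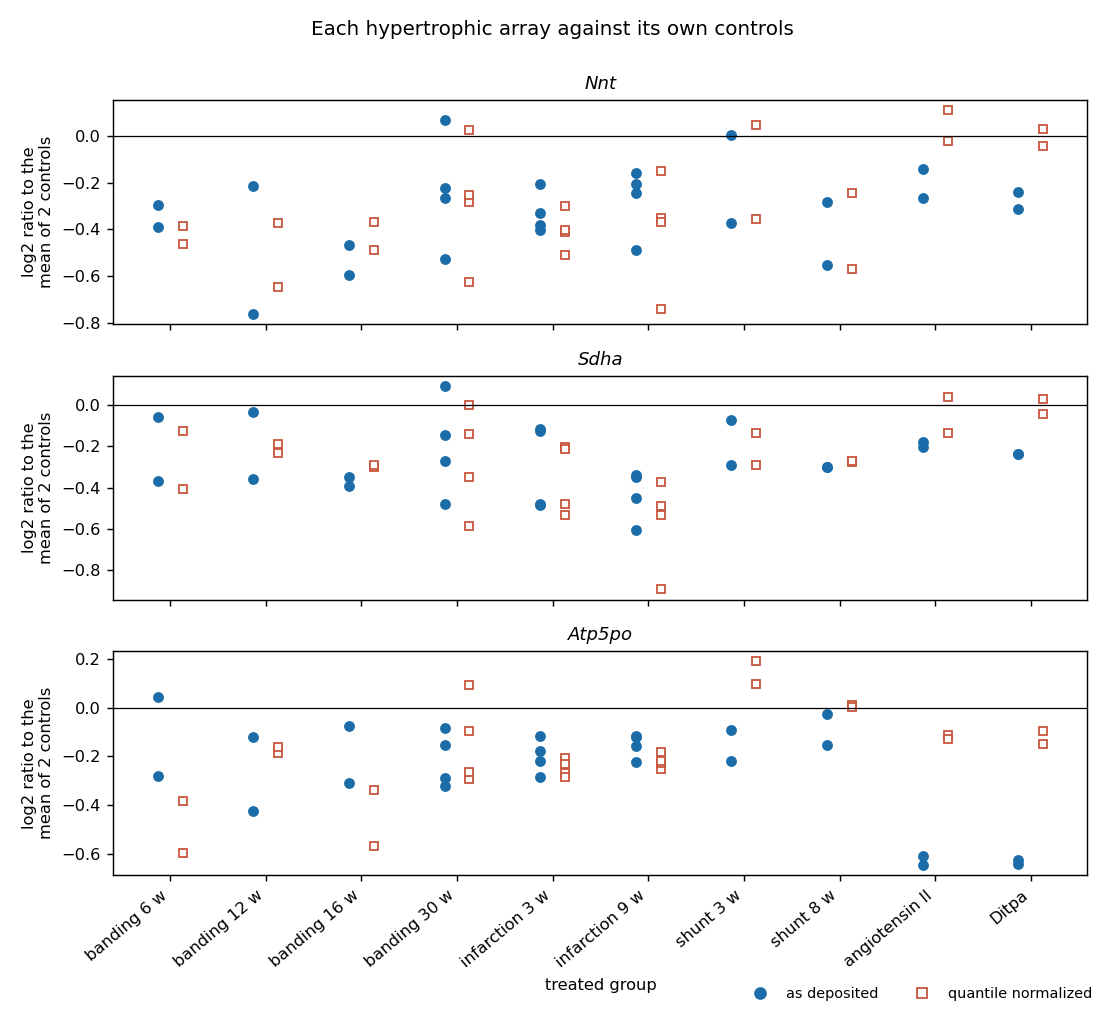
Log2 ratio of each of the 26 hypertrophic arrays to the mean of its own 2 controls (y axes) for Nnt, Sdha and Atp5po by treated group (x axis), as deposited and after quantile normalization. As deposited, 24, 25 and 25 of the 26 arrays lie below 0, and the hormone arrays are the lowest for Atp5po only as deposited.

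The methods also name a rank sum test. It was run here between the 26 hypertrophic and the 18 control arrays, each as the ratio to the mean of its own control pair. The paper describes such ratios for hypertrophic samples only. For a control array the mean includes the array itself, which narrows the spread of the control ratios by construction. Ratios that share a control pair are also not independent. The exact p-values take neither into account. At its Bonferroni threshold of 5.72e-06, 3 members passed, all lower, against 0.253% of probe sets lower and 1.09% higher. They were Nnt (exact p = 1.42e-08), Sdha (exact p = 2.22e-07) and Atp5po (exact p = 2.13e-06). The same 3 were the only members called by limma as deposited when the hormone groups were left out, with effects of -0.35, -0.27 and -0.17, against 1.98% of probe sets called lower. After quantile normalization, leaving out the hormone groups gave 15 members lower, against 4.06%. Shares over all probe sets were not computed for fits that left out 1 array. The count of 9 as deposited also rested on single control arrays. It became 5 without the vehicle array numbered 1 and 16 without the dim 6-week sham array numbered 3.

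Among the models, aortic banding showed calls in complex I and Nnt as deposited. In that scaling, 3 members were called lower, against 1.98% of probe sets, and the median effect was -0.079. After quantile normalization 12 were called lower, against 3.3%, with a median of -0.16: 6 of complex I, 1 each of complexes II and IV, 3 of complex V and Nnt. The median of complex I was -0.23 as deposited and -0.27 after quantile normalization. That of complex IV was 0.069 and -0.068, so that its direction depended on the scaling. Fits that left out 1 array were run without shares over all probe sets. The count as deposited was 8 without banding array 2 of 12 weeks and 6 without sham array 4 of 12 weeks, and the median was -0.13 without the former and -0.028 without banding array 1 of 12 weeks.

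In banded hearts Nnt was at 10802 and 11550 after 6 weeks (sham 13963 and 14350), 10344 and 15116 after 12 weeks (sham 17516 and 17571), 10862 and 11858 after 16 weeks (sham 15196 and 17623) and 11637 to 17595 after 30 weeks (sham 16457 and 17047). Only 1 banded array, of 30 weeks, reached its shams. The banding effect for Nnt was -0.40 ± 0.079 (limma adjusted p = 0.00151).

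Ndufs7, the iron-sulphur subunit of complex I next to the ubiquinone site, had the largest banding effect of the members. Its intensities were 9603 and 9846 at 6 weeks (sham 10204 and 13969), 7161 and 11553 at 12 weeks (sham 8602 and 18769), 9132 and 9239 at 16 weeks (sham 13301 and 16420) and 7353 to 14463 at 30 weeks (sham 10508 and 14287). Banded arrays were wholly below their shams at 6 and 16 weeks and overlapped them at 12 and 30 weeks. The effect of -0.48 ± 0.14 (limma adjusted p = 0.0417) was no longer called in 12 of 18 fits that each left out 1 array, the adjusted p reaching 0.162 without sham array 3 of 12 weeks. Ndufa9, which sits at the junction of the membrane and matrix arms of complex I, fell by 0.34 on the log2 scale (limma adjusted p = 0.00513), and by 0.38 after quantile normalization.

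By time point, no member was called in either direction as deposited at 6, 12, 16 or 30 weeks of banding, against 0.652%, 0.355%, 0.709% and 1.12% of probe sets. At an unadjusted p below 0.05 there were 5, 2, 9 and 7 members, against 723, 777, 1122 and 937 of all 8740 probe sets. After quantile normalization the call at 6 and at 16 weeks was Atp5po (-0.48 and -0.45) and the call at 30 weeks was Ndufa9 (-0.53), against 0.32%, 0.538% and 0.32% of probe sets. At 6 weeks the scaling decided the sign of the members' median, which was 0.093 as deposited and -0.16 after quantile normalization. It was also -0.072 as deposited without the dim sham array.

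**Figure D4:**
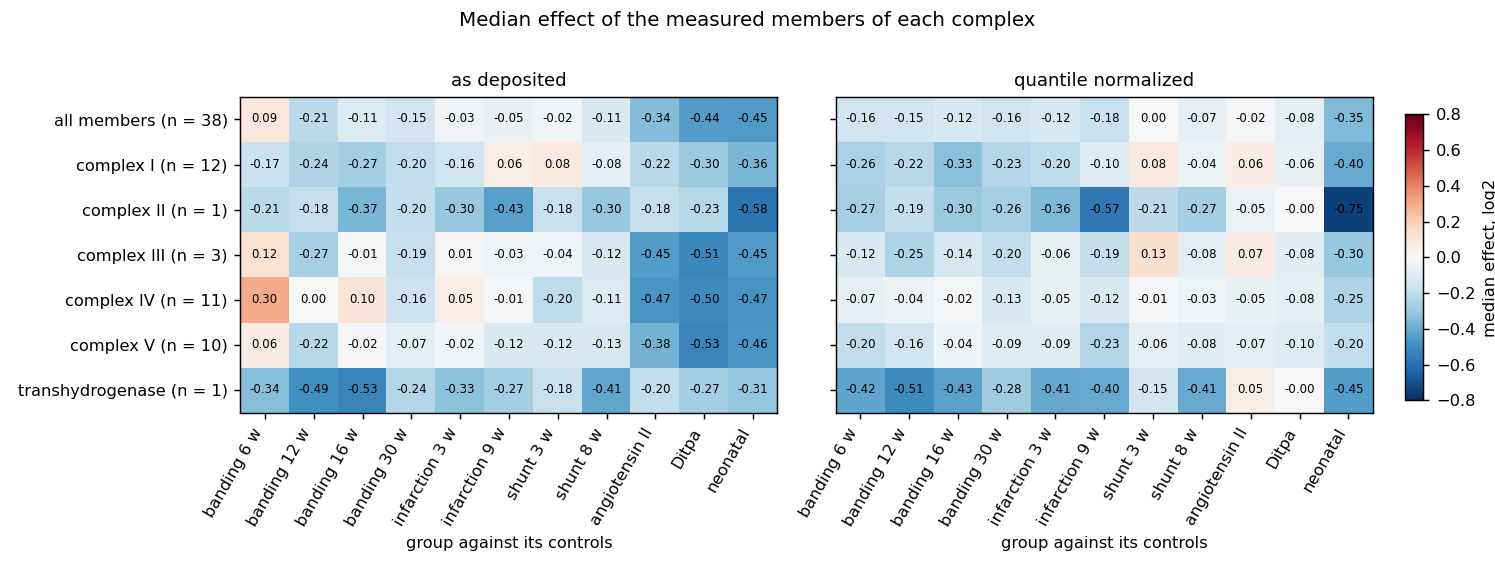
Median log2 effect of the measured members of each complex (rows) in each treated group and in neonatal heart (columns), as deposited and after quantile normalization. As deposited the lowest medians over all 38 members are those of angiotensin II (-0.34), Ditpa (-0.44) and neonatal heart (-0.45), while after quantile normalization those of the hormones are -0.015 and -0.081.

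After myocardial infarction Sdha was the only member called as deposited, against 0.252% of probe sets called lower. Its intensity was 10788 to 13927 in the 4 arrays of 3 weeks (sham 14796 and 15382) and 10697 to 12869 in the 4 arrays of 9 weeks (sham 15978 and 16569), so that all 8 infarction arrays were below their shams. The effect was -0.37 ± 0.10 (limma adjusted p = 0.0459) and -0.46 after quantile normalization (adjusted p = 0.00656). As deposited the call was lost in 8 of 12 fits that each left out 1 array, with an adjusted p up to 0.239 without sham array 2 of 3 weeks. After quantile normalization Nnt (-0.40), Ndufs6 (-0.31) and Atp5f1c (-0.21) were called as well, so that 4 members were lower, against 0.492% of probe sets. By time point, no member was called as deposited at 3 or 9 weeks, against 0.206% and 1.92% of probe sets in either direction. At an unadjusted p below 0.05 there were 6 and 2 members, against 400 and 1201 of all 8740 probe sets. After quantile normalization Sdha was called at 9 weeks (-0.57), against 0.389% of probe sets lower. The members' median was then -0.12 at 3 weeks and -0.18 at 9 weeks, against -0.029 and -0.053 as deposited.

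Signals of marker genes listed for other cell types moved in these hearts too. The intensity summed over 9 fibroblast markers was 59510 to 109063 on infarction arrays and 33354 to 62222 on all control arrays. After infarction 6 of the 9 were called higher, against 1.7% of probe sets. In banded hearts the sum was 38691 to 64772, with a median of 50347 against 51758 in controls. There, 6 of the 9 were also called higher, against 3.28% of probe sets (4 after quantile normalization, against 2.73%). The sum over 6 macrophage markers was 17469 to 39922 after infarction (median 21824) and 14467 to 23779 in controls, so that the ranges overlapped. That over 3 atrial myocyte markers was above all controls (10167 to 19702) in both banding (36872 to 56575) and infarction (39115 to 52655). The brightest of the 3 was Nppa (mean 22608), which the paper counts among its core hypertrophy genes. This sum is therefore no measure of atrial cells alone. The sum over 4 erythrocyte markers was 66509 to 92425 after infarction and 45229 to 83713 in controls, which overlapped. Over the 13 cardiomyocyte markers the median effect was 0.17 in banding and 0.076 in infarction with 0 called in either as deposited, and -0.00087 and -0.015 after quantile normalization. The part of these shifts in the lower signals of the members was not tested.

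The shunt gave no called member under either scaling, against 0% of probe sets called lower as deposited and 0.0114% after quantile normalization. At an unadjusted p below 0.05, 7 members passed as deposited and 4 after quantile normalization, against 752 and 757 of all 8740 probe sets. The median effect was -0.082 and -0.028. By complex the medians as deposited were 0.0055 (complex I), -0.060 (complex III), -0.18 (complex IV) and -0.11 (complex V), and after quantile normalization they were 0.016, 0.056, -0.059 and -0.060, so that complex III turned. Sdha was at -0.24 under both. As deposited Cox8b, the muscle isoform of subunit 8 of the oxidase, had the lowest effect (-0.34), and after quantile normalization it was at -0.13 and Nnt lowest (-0.28). At 3 weeks and at 8 weeks no member was called either, against 0% and 0.0458% of probe sets in either direction. At an unadjusted p below 0.05 there were 6 and 1 members, against 843 and 327 of all 8740 probe sets. At 8 weeks 37 of the 38 effects were below 0 as deposited and 29 after quantile normalization.

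As deposited, the members' summed intensity was lower on the 4 hormone arrays than on any other adult array, although single members such as Sdha and Nnt reached lower values in banding or infarction. Atp5po was at 19840 and 20332 with angiotensin II and at 19872 and 20107 with Ditpa, against 28207 and 33863 with vehicle. Cox6a2, the muscle isoform of subunit 6a of the oxidase, was at 20826 and 21393 with angiotensin II and at 20935 and 20993 with Ditpa, against 29809 and 35643 with vehicle. For both genes all 4 hormone arrays were below the vehicle arrays.

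Even so, no member was called in either hormone group, and neither was any other probe set (0% in each direction). The median effect of the members was -0.34 with angiotensin II and -0.44 with Ditpa. Of the members 19 and 20 had an unadjusted p below 0.05, against 305 and 280 of all 8740 probe sets. When the arrays were weighted by their own residual spread, 18 members were called lower in each group, against 1.74% and 1.65% of probe sets. After quantile normalization the medians were -0.015 and -0.081. At an unadjusted p below 0.05 there were then 5 members in each group, against 180 and 159 of all 8740 probe sets. Cox6a2 was then at 36523 to 36784 on the hormone arrays and 37581 and 38541 with vehicle. Both groups share the vehicle arrays, so their effects are not independent of each other.

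Angiotensin II and Ditpa were compared directly, since both were sampled at 2 weeks. No member differed in either direction as deposited or after quantile normalization, against 0.0114% of probe sets called. At an unadjusted p below 0.05 there were 0 and 1 members, against 98 and 123 of all 8740 probe sets. The differences ranged from -0.19 to 0.44 as deposited with a median of 0.055. For the surgical models minus the hormones, 0 members were called, against 0.217% of probe sets higher and 0.0114% lower. An unadjusted p below 0.05 was found for 18 members, against 396 of all 8740 probe sets. With array weights 17 were called higher, against 2.37% of probe sets. The median difference was 0.31 as deposited and -0.057 after quantile normalization, so that its sign depended on the scaling. Between the 5 models no member passed the F test under either scaling, against 0.275% of probe sets as deposited and 0.332% after quantile normalization. The lowest adjusted p was that of Cox6a2 (0.292, as deposited).

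In neonatal heart the members were called more often than in any other comparison. As deposited, 25 of 38 were called lower, against 17% of all probe sets, and 2 were called higher, against 15.5%. Lower members were found in every complex: 6 of 12 in complex I, Sdha, all 3 in complex III, 8 of 11 in complex IV and 6 of 10 in complex V, with Nnt in addition. The median effect was -0.45, against -0.074 over all probe sets. Against the 2 vehicle arrays alone 8 members were called lower, against 6.49% of probe sets, and 0 higher, against 7.62%. After quantile normalization 21 were lower, against 15.3%, and 3 higher, against 15.2%, with a median of -0.35. By complex the medians as deposited were -0.36 (I), -0.45 (III), -0.47 (IV) and -0.46 (V), and after quantile normalization -0.40, -0.30, -0.25 and -0.20, so that complex I had the mildest median under the former scaling and the lowest of these 4 under the latter.

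The neonatal arrays are dimmer at their upper end than most adult arrays, and the 2 scalings gave different members. Several of the brightest subunits lost their call. Cox6a2 went from -0.73 to -0.093, the beta subunit of ATP synthase Atp5f1b from -0.64 to -0.062, and Cox4i1, a regulatory subunit of the oxidase, from -0.67 to -0.10. Cox6b1, which lies at the interface of the oxidase dimer, turned from -0.29 to 0.23 and was called under both, and Atp5po from -0.48 to 0.095, where it was not called. The 13 cardiomyocyte markers behaved in the same way, with 12 lower and a median of -0.66 as deposited and 2 lower after quantile normalization (Pln and Fabp3). The intensity summed over the fibroblast markers was 63729 and 93272 on the neonatal arrays as deposited, above all controls, and 59661 and 90398 after quantile normalization, with 1 array inside the control range (31975 to 62581). The sums as deposited were above all controls for 5 smooth muscle markers (31668 and 33966 against 11093 to 14301). They were also above all controls for the atrial markers, Nppa among them (42213 and 45466). They were below all controls for the macrophage markers (9474 and 11793 against 14467 to 23779). Single markers did not all follow. Both neonatal arrays lay above all controls for 5 of 9 fibroblast, 2 of 5 smooth muscle and 3 of 3 atrial markers, against 12.4% of probe sets. Both lay below all controls for 1 marker each of the fibroblast, smooth muscle and macrophage lists, against 10.3%. In addition 4 of 4 proliferation markers were called higher. The part of these shifts in the members' effects was not tested.

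Other members were lower under both scalings. Cox7b was at 10284 and 12845 on the neonatal arrays, below all 18 control arrays (14178 to 24795, median 19058), with an effect of -0.74 ± 0.13 (limma adjusted p = 5.5e-05) and -0.87 after quantile normalization. Ndufv3, an accessory subunit of the NADH-oxidizing part of complex I, was at 11628 and 9680, again below all controls (13094 to 20075, median 17140), with effects of -0.67 ± 0.12 and -0.84. Sdha was at 10721 and 10023, below all controls, with effects of -0.58 ± 0.12 and -0.75. For Nnt the neonatal values were 14982 and 12120, so that 1 array lay within the adult range, and the effects were -0.31 ± 0.12 (adjusted p = 0.0491) and -0.45. As deposited the call for Nnt was lost in 16 of 20 fits that each left out 1 array, with an effect of -0.16 (adjusted p = 0.532) without neonatal array 2.

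Subunits of ATP synthase were lower as well. Atp5f1c had an effect of -0.63 ± 0.12 as deposited and -0.47 after quantile normalization, Atp5f1a -0.59 ± 0.12 and -0.53, and Atp5f1e -0.60 ± 0.12 and -0.19, all of them called. The inhibitory factor Atp5if1 was at 0.053 and -0.11 and was not called. The count of members whose neonatal arrays were both below all 18 adult controls was 7 as deposited, against 10.3% of probe sets. These were Ndufa5, Ndufa8, Ndufv3, Sdha, Uqcrc2, Cyc1 and Cox7b. After quantile normalization it was 14, against 10.1%, and Cox6a1 and Cox8a were above all controls, against 11.9%.

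The isoforms of cytochrome c oxidase moved apart in neonatal heart. Cox8a, the ubiquitous isoform of subunit 8, was at 24883 and 20810 on the neonatal arrays and at 15612 to 23347 (median 17658) on adult control arrays. Cox8b, its counterpart in heart and skeletal muscle, was at 21376 and 17718 against 20538 to 42954 (median 34256). In each case 1 neonatal array lay within the adult range as deposited.

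The effect was 0.32 ± 0.12 for Cox8a (limma adjusted p = 0.0391) and -0.73 ± 0.15 for Cox8b (adjusted p = 0.000391). After quantile normalization the effects were 0.82 and -0.45, both called, and the ranges no longer overlapped. All 4 probe sets of Cox8a were called higher, with effects between 0.32 and 1.32, and both probe sets of Cox8b were called lower. As deposited the Cox8a call rested on both neonatal arrays, with an effect of 0.19 (limma adjusted p = 0.495) without array 1 and 0.45 (adjusted p = 0.0517) without array 2, and it was also lost without sham array 3 of banding at 16 weeks (adjusted p = 0.0512). The comparison also includes adult arrays of several ages and operations, and against the vehicle arrays alone Cox8a was at 0.15.

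For subunit 6a, the ubiquitous isoform Cox6a1 was at 21343 and 18866 against 14248 to 19350 (median 16164) in adult controls. The muscle isoform Cox6a2 was at 25404 and 21755 against 24985 to 50358 (median 41112). As deposited Cox6a2 was called lower (-0.73), with 2 of its 3 probe sets called, but it was not called after quantile normalization. Cox6a1 had an effect of 0.31 ± 0.11 (limma adjusted p = 0.0324) and 0.56 after quantile normalization. Only the brightest of its 3 probe sets was called, and as deposited its call was lost without either neonatal array.

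The isoforms were also compared within each array. Cox6a2 and Cox8b are brighter than Cox6a1 and Cox8a, so that this difference too moves with the bright end of an array. The difference of the log2 signals of Cox8a and Cox8b, relative to the adult control mean, was 1.04 and 1.06 on the neonatal arrays and -0.58 to 0.74 on the controls. That of Cox6a1 and Cox6a2 was 1.01 and 1.06 against -0.50 to 0.54. In both pairs the neonatal arrays were outside the adult control range, and they remained so after quantile normalization, where the mean differences were 1.27 for subunit 8 and 0.65 for subunit 6a. Each of the 4 comparisons gave an exact two-sided permutation p of 0.00526, the smallest that 190 assignments allow, and 0.00526 after Benjamini-Hochberg adjustment. The permutations treated single arrays as exchangeable, although they came in pairs from separate groups. The p-value therefore does not take differences between groups into account. Both scalings use the same arrays, so the 4 comparisons are not independent. On the 26 hypertrophic arrays the medians were 0.13 and -0.047 as deposited and 0.026 and -0.0049 after quantile normalization.

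The hormone arrays stood apart in the same direction. As deposited all 4 were above every control array in both pairs, at 0.75 to 0.89 for Cox8a and Cox8b and at 0.72 to 0.81 for Cox6a1 and Cox6a2, whereas the other 22 hypertrophic arrays did not exceed the controls. The highest control in both pairs was the dim 6-week sham array. After quantile normalization 3 of the 4 hormone arrays were still above all controls in each pair (0.50 to 0.89 and 0.17 to 0.27). The neonatal arrays were higher than all hormone arrays in both pairs under both scalings. The part of array brightness in these differences was not tested.

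**Figure D5:**
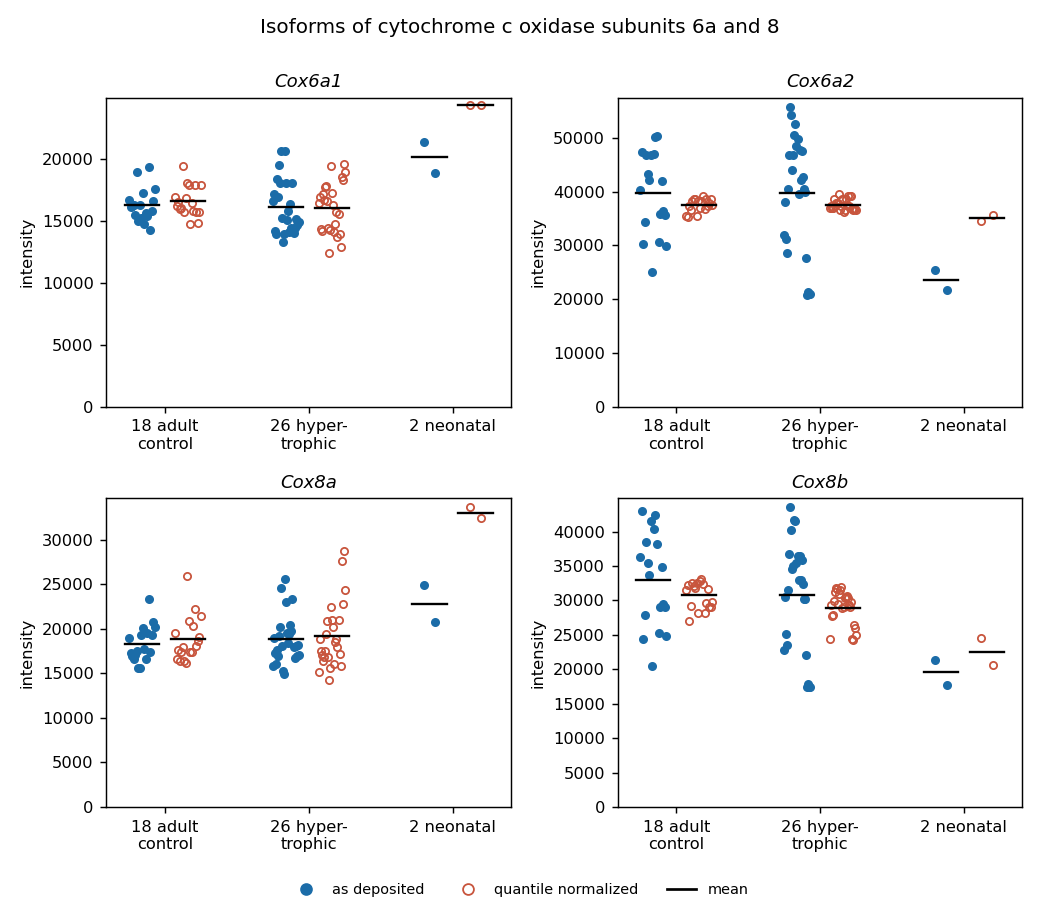
Intensity (y axes) of the isoforms Cox6a1, Cox6a2, Cox8a and Cox8b on 18 adult control, 26 hypertrophic and 2 neonatal arrays, as deposited and after quantile normalization, with 1 point per array and the group mean as a line. As deposited, the ubiquitous isoforms are high and the muscle isoforms low on the neonatal arrays: Cox8a is at 24883 and 20810 and Cox8b at 21376 and 17718.

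Among the 18 members with more than 1 probe set, none had probe sets called in opposite directions. On average over the treated groups, 13 had no probe set called, 1 had all called and 4 had some, and in neonatal heart the counts were 2, 7 and 9. Near-identical copies of these genes are common in mammalian genomes, so that a probe set can also detect related transcripts.

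Neighbouring parts of energy metabolism were set beside the members as background, as deposited unless stated, against the shares of all probe sets given above (1.57% lower on average, and 17% lower and 15.5% higher in neonatal heart). Of 18 genes of fatty acid oxidation, 11 were called lower on average (median -0.20), led by the thiolase Acaa2 (-0.58), the dienoyl-CoA reductase Decr1 (-0.56) and the trifunctional protein subunit Hadhb (-0.42). In neonatal heart 10 were lower and 1 higher, with Acadm, medium-chain acyl-CoA dehydrogenase, at -1.39. Of 7 genes of the citrate cycle 1 was called lower on average (Suclg1, -0.26) and 4 in neonatal heart. Of 12 glycolytic genes 2 were lower on average, the muscle enolase Eno3 (-0.55) and muscle phosphofructokinase Pfkm (-0.30). Of 16 further nuclear subunits that are not members, 3 were lower on average and 5 lower and 1 higher in neonatal heart (9 lower and 0 higher after quantile normalization).

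Of 3 subunits encoded in mitochondrial DNA, 0 were called on average as deposited, with a median of -0.10. Cox1 (-0.71) and Cox3 (-0.65) were called lower in neonatal heart as deposited, and were at -0.044 and -0.00037 after quantile normalization. Among 13 carriers and electron donors, the mitochondrial creatine kinase Ckmt2 was at -3.50 in neonatal heart and -0.23 on average. The adenine nucleotide carriers moved apart in neonatal heart, with the muscle form Slc25a4 at -0.68 (-0.20 after quantile normalization) and Slc25a5 at 1.21 (1.07), all called. None of 3 assembly factors and none of 6 regulators was called on average as deposited, and 1 of each was lower after quantile normalization. Among the regulators, in neonatal heart the thyroid hormone receptor Thra was at 1.04 and Thrb at -0.41.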

How the data were processed

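The authors normalized the arrays by the invariant rank method and deposited model-based intensity values (perfect match probes only, dChip) on a linear scale. Each array is 1 RNA pool, every deposited column was used, and no 2 arrays held identical values. Depth has no meaning for arrays, so the number of pools limits the precision. Intensities were raised to at least 16 (floor) and log2 transformed. limma 3.58.1 in R 4.3.3 fitted a mean for each of the 20 groups over all 46 arrays, leaving 26 residual degrees of freedom, and p-values were adjusted by Benjamini-Hochberg over all 8740 probe sets. An effect is a difference of log2 means. The 10 treated groups were weighted equally in the average, time points equally within a model. Gene symbols came from the platform annotation: 7006 probe sets had 1 symbol, 308 several and 1426 none. A rank sum test, which the methods name, was run on 8696 probe sets without ties. The fits were tested on simulated data. Members, lists and comparisons were chosen with earlier results of these data known. Named with statistics were members called on average, in a model or between surgical and hormone models, the 10 largest called in neonatal heart, the isoform pairs, Atp5if1 and Nnt. Alternatives were quantile normalization, another floor (32), a signal filter, means over probe sets, array weights, other weightings, replicate blocks and leaving out each array.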

Additional observations from a re-analysis of the deposited data

Results flagged for a closer look

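In 75 series of 4 arrays (3 groups of 4, single members and complexes), 5 held 1 array far from the other 3 by Dixon's criterion, and chance alone flags about 1 in 20. Of these, 3 concerned array 4 of banding at 30 weeks. Its log2 ratio to the shams was -0.50 for Cox6a2 (the others 0.03 to 0.12) and -0.53 for Cox4i1 (the others -0.08 to -0.01), and the median of complex III was -0.47 (the others -0.13 to -0.09). In the same group Cox6a1 was at 0.26 on array 2 (the others -0.10 to -0.06). After infarction at 9 weeks Atp5f1c was at 0.00505 on array 3 (the others -0.28 to -0.24).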

How the results depend on the processing

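Quantile normalization changed the members' median to -0.16 (from 0.093) in banding at 6 weeks, -0.12 (from -0.029) and -0.18 (from -0.053) after infarction at 3 and 9 weeks, -0.015 with angiotensin II, -0.081 with Ditpa, -0.35 in neonatal heart, -0.057 for surgical models minus hormones and 0.0011 (from -0.022) in the shunt at 3 weeks. Medians of several complexes also turned, among them complex I (-0.22 to 0.059) and III (-0.45 to 0.067) with angiotensin II. The count of members called lower became 1 at 6, 16 and 30 weeks of banding and at 9 weeks of infarction, 12 for banding and 4 for infarction, and neonatal Atp5if1 turned to -0.11. Keeping only probe sets at or above the median signal gave 1 lower in banding at 16 weeks, and the mean of all probe sets of a gene gave 1 higher in neonatal heart. Shares over all probe sets were not computed for these settings. As deposited with all probe sets they were 0.492% and 15.5%. Array weights gave 3 lower in banding at 16 weeks (1.45% of probe sets), 1 after infarction at 9 weeks (0.973%), 1 with the shunt at 8 weeks (0.938%) and 2 for infarction (0.973%). They also gave 18 lower with angiotensin II (1.74%) and with Ditpa (1.65%), and 17 higher for surgical models minus hormones (2.37%). The cause of these changes was not tested.

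For the average, the rank sum test and the omission of the hormone groups each gave 3 members lower. Without the hormones Cox6a1 (0.0023), Cox6a2 (0.060) and Atp5if1 (0.0092) turned sign. With quantile normalization in addition 15 were lower, and Cox6a2 (0.0095) and Cox8a (-0.040) turned. Weighting the 5 models equally turned Cox8a to -0.046, and with quantile normalization left 2 lower and turned Cox6a1 to 0.014. Leaving out 1 array ended the average call of Uqcrc2 in 29 of 44 fits, with an adjusted p up to 0.213 without the vehicle array numbered 1.

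Leaving out single arrays moved the average count between 5 and 16, the neonatal counts between 16 and 25 lower and 0 and 2 higher (0 without either neonatal array, 1 without sham array 3 of banding at 16 weeks, 16 lower without neonatal array 2) and neonatal Atp5if1 between -0.0046 and 0.11. Banding gave 2 to 8 lower and 0 to 1 higher, at 6 weeks 0 to 6 higher (6 without sham array 4) with a median of -0.072 to 0.20, at 12 weeks 0 to 3 lower (3 without banding array 2) with a median of -0.33 to 0.00086, and at 16 weeks 0 to 1 lower with a median of -0.15 to -0.027 (without sham array 4). Infarction gave 0 to 1 lower with a median of -0.081 to -0.023 (without sham arrays 5 and 6 of 9 weeks), at 9 weeks of -0.10 to 0.027 (without the same arrays), and surgical models minus hormones 0 to 4 higher (4 without sham array 4 of banding at 6 weeks) with a median of 0.23 to 0.41. The median was -0.45 to -0.28 with angiotensin II and -0.56 to -0.35 with Ditpa. For none of these fits were shares over all probe sets computed, so the counts have no background beside them.

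Vehicle, hormone and neonatal arrays share replicate numbers, but same-numbered arrays did not deviate together (correlations of -0.04, -0.06, -0.08 and -0.14). These values gave no sign of pairing. With 2 arrays per group they cannot exclude it. With the replicate block, neonatal heart against vehicle alone had 8 members lower (6.22% of probe sets), 0 higher (7.39%) and Atp5if1 at -0.063. Without the block the values were again 8, 0 and -0.063, and a crossed pairing, chosen after seeing the data, gave 8 and 0. The settings without the block and those combining quantile normalization were also added after seeing the data. A block over the hormone groups took Uqcrc2 to an adjusted p of 0.051.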
